A study of Mus musculus with 5 samples.

Results

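The HoxD cluster is a run of 9 homeobox genes on mouse chromosome 2, Hoxd1, Hoxd3, Hoxd4, Hoxd8, Hoxd9, Hoxd10, Hoxd11, Hoxd12 and Hoxd13. The genes were found by symbol, ignoring case, among the array's annotated probes. All 9 had a probe, 1 each, out of 17742 named genes measured. They were followed in paralog order over 5 single-colour arrays of 1 mouse embryonic stem cell (ESC) line, 46C, and its derivatives.

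Each of the 5 groups held 1 array. The ESCs (control genotype, day 0) grew in serum with LIF on feeders, which were taken off before harvest. At day 4 of differentiation, control and Linc1405 knockdown cells, labelled mesoderm, had been grown serum-free with Bmp4 (0.2 ng/ml), Activin A and VEGF (5 ng/ml each). At day 10, control and Linc1405 knockdown cells, labelled cardiomyocytes, had been in a medium with bFGF (10 ng/ml), VEGF (5 ng/ml) and FGF10 (25 ng/ml). Linc1405 is a long non-coding RNA, and the series title pairs it with the T-box factor Eomes. Sample names of the knockdown groups carry the tag 1405KIpA, whose meaning the sources used here do not give, nor do they give the number of clones. No annotated probe carried the name Linc1405, so its own level was not checked.

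Hox genes encode homeodomain transcription factors that give cells their position along the head-to-tail axis. Within a cluster the genes are switched on in physical order: low-numbered genes come on early and reach far forward, and high-numbered genes come on later and stay towards the tail. Cdx factors and retinoic acid promote Hox expression, Polycomb complexes keep Hox genes silent in stem cells, and Pbx and Meis proteins bind DNA together with Hox proteins. In the limb and the genital bud the high-numbered HoxD genes are used again, under separate enhancers on either side of the cluster.

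Values are log2 intensities after quantile normalization, with a floor at an intensity of 100 (log2 6.64), below which levels have no order. The median gene lay between 10.01 and 10.08 on each array. With 1 array per group nothing measured the spread between cultures, no test was possible, and each difference describes a pair of arrays. The only error available was between probes of the same gene: their log2 differences had an SD per probe of 0.243 for knockdown against control at day 4 and 0.304 at day 10. Between stages that SD was 0.604 (control day 4 against ESCs), 0.748 (control day 10 against day 4) and 0.709 (knockdown day 10 against day 4). Different probes have different brightness, so no gene's level is set against another gene's.

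Hoxd4, Hoxd8, Hoxd9 and Hoxd10 were the genes at least 2-fold apart between the lines at day 10, and the first 3 of these also at day 4. The upstream sequences of these genes are shown for description, and no expression value rests on them. RefSeq start sites were available for all 9 genes, in 10 windows of 250 bases (Hoxd11 has more than 1). Capitals mark exact matches, on either strand, to 3 short motifs: a T-box core (AGGTGTGA, reverse TCACACCT), a Cdx core (TTTATG, reverse CATAAA) and a retinoid receptor motif (AGGTCA, reverse TGACCT).
Hoxd4 (GRCm38.p6, chr2:74721728-74721977, plus strand): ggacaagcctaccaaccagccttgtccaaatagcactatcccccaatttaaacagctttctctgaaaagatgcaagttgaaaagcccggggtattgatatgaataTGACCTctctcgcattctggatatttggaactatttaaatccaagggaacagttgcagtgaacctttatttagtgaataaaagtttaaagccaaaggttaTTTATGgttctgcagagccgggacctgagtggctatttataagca
Hoxd8 (GRCm38.p6, chr2:74704365-74704614, plus strand): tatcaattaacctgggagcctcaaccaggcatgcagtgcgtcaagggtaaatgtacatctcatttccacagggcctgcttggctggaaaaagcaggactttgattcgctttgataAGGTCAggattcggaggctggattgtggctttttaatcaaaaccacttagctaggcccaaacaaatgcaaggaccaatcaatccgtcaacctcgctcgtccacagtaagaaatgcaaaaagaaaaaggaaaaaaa
Hoxd9 (GRCm38.p6, chr2:74697513-74697762, plus strand): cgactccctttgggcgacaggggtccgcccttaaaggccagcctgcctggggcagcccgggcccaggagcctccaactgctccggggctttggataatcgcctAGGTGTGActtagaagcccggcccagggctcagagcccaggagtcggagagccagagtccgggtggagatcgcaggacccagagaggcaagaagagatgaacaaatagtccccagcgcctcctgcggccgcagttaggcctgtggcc
Hoxd10 (GRCm38.p6, chr2:74691641-74691890, plus strand): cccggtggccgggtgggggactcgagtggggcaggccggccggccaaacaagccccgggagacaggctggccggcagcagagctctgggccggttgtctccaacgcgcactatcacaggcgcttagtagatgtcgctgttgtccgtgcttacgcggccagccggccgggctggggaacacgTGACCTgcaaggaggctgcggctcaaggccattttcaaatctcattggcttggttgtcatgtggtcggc

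The T-box core stood in 1 of the 10 HoxD windows, that of Hoxd9, at -147 to -140 from the gene start. It was present in 1.12% of 32851 promoter windows of the same length. The Cdx core stood in 3 of 10 HoxD windows, those of Hoxd3, Hoxd4 and Hoxd11, against 10.8% of all windows. For Hoxd11 only the farther upstream window (chr2:74679308-74679557) held it. The retinoid receptor motif stood in 4 of 10, those of Hoxd3, Hoxd4, Hoxd8 and Hoxd10, against 14% of all windows. In Hoxd3 the Cdx and retinoid matches share bases. In Hoxd4 the retinoid match lay at -145 to -140 and the Cdx match at -45 to -40. The window of Hoxd4 falls inside the annotated Hoxd3 gene. These matches describe letters only, and no binding was measured.

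Hoxd9, a mid-cluster gene of the trunk and limb, had the greatest difference of the cluster at day 4. Deposited intensities were 496 in ESCs, 3207 (control) and 17662 (knockdown) at day 4, and 446 (control) and 3784 (knockdown) at day 10. On the normalized log2 scale these were 8.78, 11.49, 13.69, 9.49 and 11.89. The knockdown array was therefore the higher one on both days. The log2 difference was 2.20 at day 4 (4.58-fold, rank 10 of 17742 genes from the top) and 2.40 at day 10 (5.29-fold, rank 33). These were 9.03 and 7.90 times the between-probe SD. Control cells at day 10 and ESCs were 0.70 apart, within the between-probe SD of that pair of arrays (0.797). Knockdown cells at day 10 and control cells at day 4 were 0.40 apart (SD of that pair 0.724). Neither pair could be told apart.

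Hoxd10, its neighbour, which patterns hindlimb motor neurons and the limb, differed little at day 4 and most of the cluster at day 10. Log2 levels were 9.50 in ESCs, 10.26 and 10.80 in control and knockdown at day 4, and 9.43 and 12.48 at day 10. The knockdown array of day 10 stood above all 4 others. The difference was 0.54 at day 4 and 3.05 at day 10 (8.29-fold, rank 14 of 17742). It thus grew by 2.51 from day 4 to day 10, where the between-probe SD of such a change was 0.389. For the other members measured on all 4 arrays that change lay between -0.51 (Hoxd11) and 0.43 (Hoxd3). The difference between days was not tested.

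Hoxd8 and Hoxd4 kept nearly the same distance between the lines on both days. Hoxd8 was at 8.09 in ESCs, 9.83 and 11.21 in control and knockdown at day 4, and 10.14 and 11.57 at day 10. Its difference was 1.38 at day 4 (2.60-fold) and 1.44 at day 10 (2.70-fold). Hoxd4, a hindbrain and neck gene with a known retinoic acid response, was at 7.82 in ESCs, 9.19 and 10.53 at day 4, and 10.81 and 12.28 at day 10. Its difference was 1.34 at day 4 (2.53-fold) and 1.46 at day 10 (2.76-fold). Hoxd4 had its lowest array in ESCs and its highest in knockdown cells at day 10. Control cells at day 10 lay within the between-probe SD of knockdown cells at day 4 for Hoxd4, but 1.07 below them for Hoxd8 (SD 0.733).

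**Figure D1:**
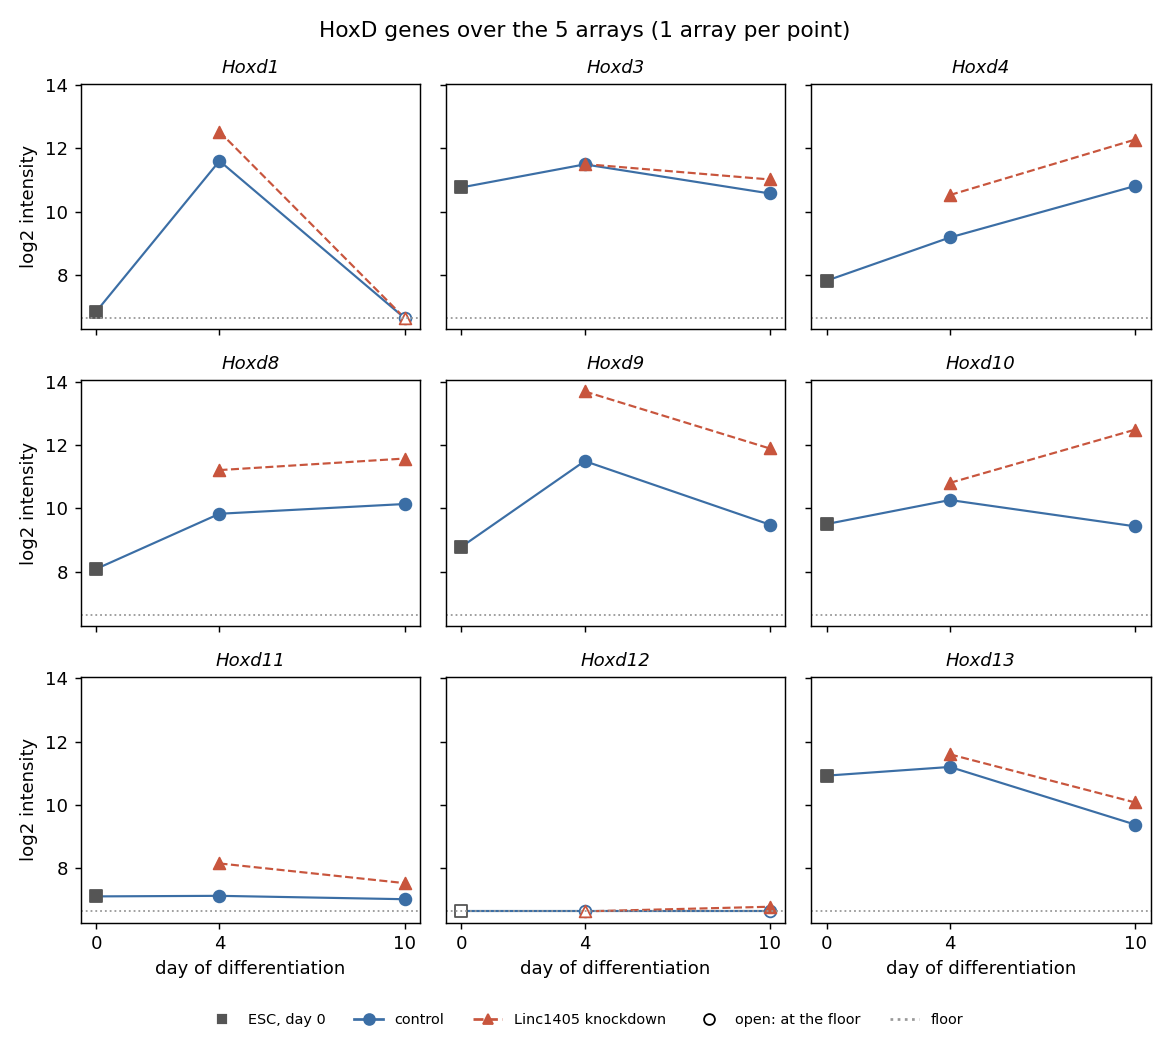
Log2 intensity (vertical axis) of each HoxD gene against day of differentiation, 1 array per point, with ESCs as squares, control as circles and knockdown as triangles. Open symbols lie at the floor (dotted line, 6.64). Hoxd9 in knockdown cells reaches 13.69 at day 4, while Hoxd12 stays at or near the floor on all 5 arrays.

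Hoxd1, the first gene of the cluster, was a day 4 gene in both lines. Deposited intensities were 140 in ESCs, 3472 and 7771 in control and knockdown at day 4, and 15 and 0 in control and knockdown at day 10. The log2 levels were 6.84, 11.60 and 12.52 up to day 4, and both day 10 arrays lay at the floor. At day 4 the knockdown array was higher by 0.92 (1.89-fold), just short of 2-fold. No difference can be given at day 10.

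Hoxd3 and Hoxd13 were the members with signal on every array and no 2-fold difference between the lines on either day. Hoxd3, another low-numbered gene, was at 10.77 in ESCs, 11.49 and 11.50 in control and knockdown at day 4, and 10.58 and 11.02 at day 10. With the arrays sorted by level, each was closer to the next than the between-probe SD, while control and knockdown at day 10 were 0.44 apart (SD 0.304). Hoxd13, the last gene of the cluster, used in digits and the genital bud, was at 10.93 in ESCs, 11.20 and 11.60 at day 4, and 9.38 and 10.08 at day 10. Its knockdown array was higher by 0.40 at day 4 and 0.70 at day 10. The level of Hoxd13 in ESCs, before axial patterning starts, was closer to day 4 than to day 10. Whether that probe also reads other transcripts, or whether feeder cells gave part of the ESC signal, was not tested.

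Hoxd11 and Hoxd12 were near the lower end of the scale. Hoxd11, a forearm and kidney gene, had deposited intensities of 170 in ESCs, 163 and 385 in control and knockdown at day 4, and 76 and 122 at day 10. Its difference was 1.02 at day 4 and 0.51 at day 10, and with a floor of 200 the day 4 value was 0.51, below 2-fold. The day 10 value was 0.29 as deposited, 0.19 with loess centring, 0.16 with a common 75th percentile and 0 with a floor of 200. Hoxd12 had deposited intensities from 30 to 94. After quantile normalization it lay at the floor on every array but that of knockdown cells at day 10 (log2 6.79). Its difference there, at least 0.15, is a bound under that setting only. As deposited, both day 10 intensities (61 in knockdown, 30 in control) lay below the floor and the difference was 0. With loess centring it was -0.0051.

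Counted over all 9 members, 4 were at least 2-fold higher in knockdown cells at day 4 (Hoxd4, Hoxd8, Hoxd9, Hoxd11) and 0 lower. The same threshold took 0.721% of all measured genes upward and 1.35% downward. The median difference of the members was 0.92, beside 0 for all genes. At day 10 the members were again 4 higher (Hoxd4, Hoxd8, Hoxd9, Hoxd10) and 0 lower, against 2.0% higher and 2.7% lower over all genes. The median of the members was 0.70, beside 0. On each day 8 of 9 members lay above 0 and 1 had both arrays at the floor, where 46.8% and 45.9% of all genes lay above 0. At day 10 the 8 include Hoxd12, a bound, and the number above the median of all genes was 6 as deposited and with a floor of 200, and 7 with loess centring and with a common 75th percentile. The day 4 and day 10 pairs share no array. By position, 1 of 3 genes from Hoxd1 to Hoxd4 and 3 of 6 from Hoxd8 to Hoxd13 were at least 2-fold higher on each day. These probes are few and neighbouring genes are transcribed from shared regulatory landscapes, so the members do not count as separate replicates.

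**Figure D2:**
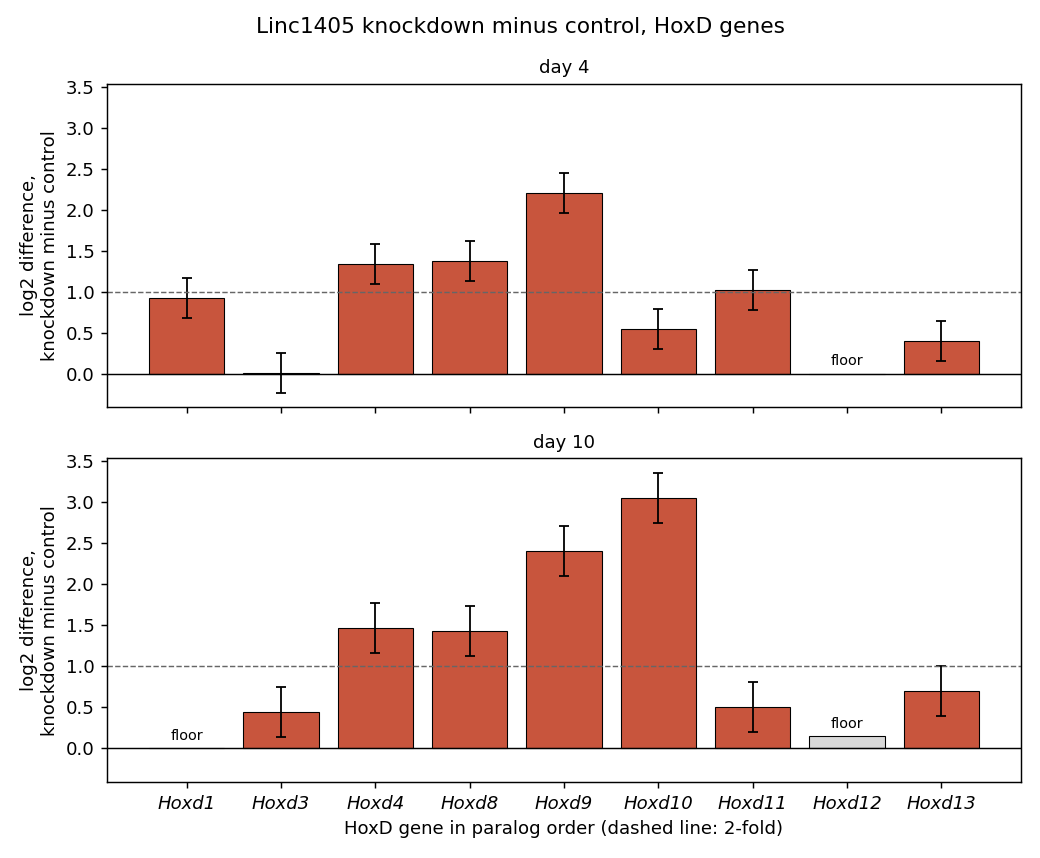
Log2 difference, knockdown minus control, for each HoxD gene in paralog order at day 4 (top) and day 10 (bottom), 1 array per group. Error bars show the between-probe SD (0.243 and 0.304), the dashed line is 2-fold, and "floor" marks an array at the floor. Hoxd9 stands highest at day 4 (2.20) and Hoxd10 at day 10 (3.05).

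From ESCs to control cells at day 4, Hoxd1 was higher by 4.76 (27.1-fold), Hoxd9 by 2.71 (6.54-fold), Hoxd8 by 1.74 and Hoxd4 by 1.37. These were 4 of 9 members at least 2-fold higher, with 0 lower, against 9.49% higher and 10.8% lower over all genes. Hoxd3 (0.73), Hoxd10 (0.76), Hoxd11 (0.02) and Hoxd13 (0.27) were within 2-fold. Over all genes the split was 14% higher and 9.05% lower as deposited, and 7.6% and 13.1% with a common 75th percentile, where 3 members were higher since Hoxd4 fell short at 0.96. The order of these differences along the cluster was not monotonic, since Hoxd9 stood above Hoxd3, Hoxd4 and Hoxd8. This comparison uses the same control array of day 4 as the knockdown comparison. The ESC array, from cells grown on feeders, also carried fibroblast markers, at a mean of 11.12 against 8.81 in control cells at day 4. Of the 7 measured, 4 were at least 2-fold lower at day 4 than in ESCs and 0 higher. Col1a1 went slightly the other way (7.29 in ESCs, 7.84 at day 4), and Col3a1 lay at the floor on both arrays. The part of feeder RNA in these differences was not tested.

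From day 4 to day 10 the members went separate ways in control cells. Hoxd1 was lower by at least 31.1-fold, with its day 10 array at the floor. That bound moves with the setting, from -5.96 to -3.96 on the log2 scale in control cells and from -6.88 to -4.88 in knockdown cells. Hoxd9 differed by -2.01 (4.02-fold lower) and Hoxd13 by -1.82 (3.53-fold lower), while Hoxd4 was higher by 1.62 (3.08-fold). That made 1 of 9 at least 2-fold higher and 3 lower, against 14.2% and 14.4% of all genes. In knockdown cells 2 were higher (Hoxd4 by 1.75, Hoxd10 by 1.68) and 3 lower, against 14.1% and 13.3%. The lower ones were Hoxd1 (at least 58.9-fold), Hoxd9 (-1.80) and Hoxd13 (-1.52). Hoxd10 stood apart between the lines, with -0.83 for control and 1.68 for knockdown. With the values as deposited, which leave the dimmer day 10 arrays unscaled, Hoxd4 in control cells was higher by 0.86, below 2-fold. With them 0 members were at least 2-fold higher and 5 lower in control cells, and 2 higher and 4 lower in knockdown cells. The same values put 6.92% of all genes higher and 40.2% lower in control cells, and 8.56% and 34% in knockdown cells. Loess centring gave 16.1% and 10.3% in control, and 16.3% and 10.2% in knockdown cells, with the members' counts as first given.

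**Figure D3:**
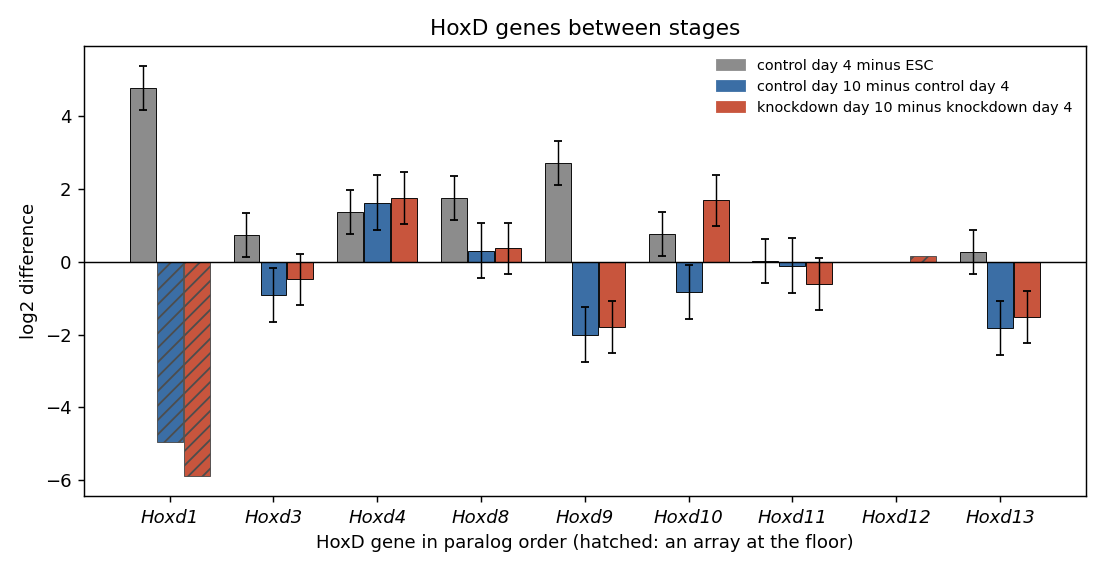
Log2 difference between stages for each HoxD gene in paralog order: control day 4 minus ESC (grey), control day 10 minus day 4 (blue) and knockdown day 10 minus day 4 (red), 1 array per group. Error bars show the between-probe SD (0.604, 0.748 and 0.709) and hatched bars have an array at the floor. Hoxd10 is the gene whose blue and red bars lie clearly on opposite sides of 0, at -0.83 and 1.68.

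The measured genes around the cluster were all within 2-fold between the lines. Of 11 listed names of HoxD neighbours 5 were measured, and 0 of 5 differed 2-fold between the lines on either day. Over all genes 0.721% were higher and 1.35% lower at day 4, and 2.0% and 2.7% at day 10. At these shares a list of 5 genes would mostly hold 0, so the count marks no boundary. Evx2, the homeobox gene beside Hoxd13, differed by 0.05 at day 4 and 0 at day 10. Mtx2, a mitochondrial import gene beyond Hoxd1, differed by 0.15 and -0.0018. Atf2, Atp5g3 and Nfe2l2, farther from the cluster on the same chromosome, lay between -0.15 and -0.03 at day 4 and between -0.35 and 0.39 at day 10. The antisense transcripts of the cluster were not analysed here. Gene models of Hoxd3 and Hoxd4, and of Hoxd10 and Hoxd11, overlap in the GRCm38.p6 annotation, and where each probe lies was not known, so the transcript read by these probes is uncertain.

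Set beside its paralogs, genes that arose from the same ancestral Hox gene, HoxD was not alone. At day 4, 3 of 10 measured HoxA genes, 4 of 10 HoxB and 5 of 9 HoxC genes were at least 2-fold higher in knockdown cells, with 0 lower in each. The medians were 0.42, 0.91 and 1.01. At day 10 the counts were 6 of 10, 0 of 10 and 5 of 9, again with 0 lower, and the medians 1.5, 0.14 and 1.1. Of all measured genes, 0.721% were higher and 1.35% lower at day 4, and 2.0% and 2.7% at day 10. Among group 9 genes, Hoxc9 differed by 2.51 and 2.27 on the 2 days, close to Hoxd9, while Hoxb9 differed by 0.90 and 0.66. Hoxa9 was higher by at least 0.87 at day 4, with the control array at the floor, and by 3.34 at day 10.

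Group 10 genes differed in when the lines parted. Hoxa10, like Hoxd10, differed more at day 10 (4.25) than at day 4 (1.39), while Hoxc10 differed by 1.89 at day 4 and 1.1 at day 10. In group 8, Hoxb8 was higher by 2.61 at day 4 and differed by -0.42 at day 10, where Hoxd8 and Hoxc8 each stayed at 1.44. The second Hoxc8 probe gave 0.90 at day 4 and 0.67 at day 10. In group 4, Hoxb4 differed by 1.25 and 0.10, Hoxc4 by 1.01 and 1.89, and Hoxa4 by 0.04 and 0.05. Other genes past 2-fold were Hoxa7 (1.81 and 3.38), Hoxa11 (1.35 at day 4, at least 3.93 at day 10), Hoxa13 (1.27 at day 10), Hoxa3 (at least 1.74 at day 10, with the control array at the floor), Hoxb6 (2.26 at day 4), Hoxb7 (1.77 at day 4) and Hoxc6 (1.49 and 1.26). No difference between clusters was tested.

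**Figure D4:**
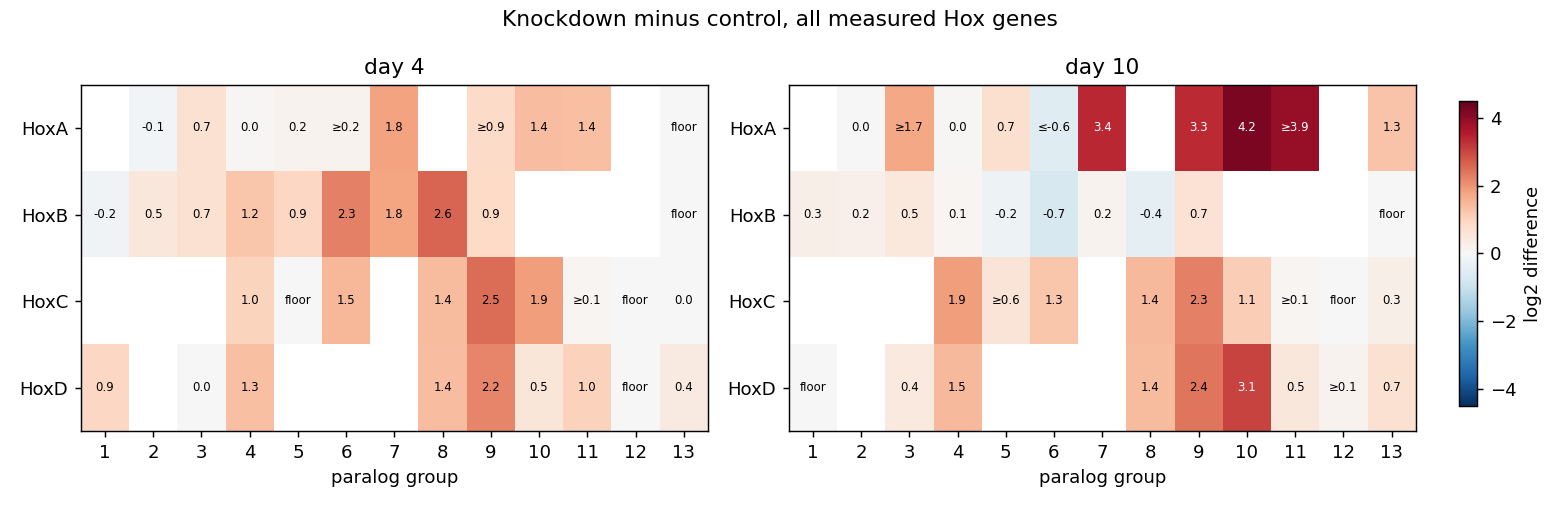
Log2 difference, knockdown minus control, of every measured Hox gene at day 4 (left) and day 10 (right), with clusters as rows and paralog groups as columns, 1 array per group. White cells have no gene or no probe, "floor" marks both arrays at the floor and the signs ≥ and ≤ mark bounds. In the HoxB row 4 genes pass 2-fold at day 4 and 0 at day 10, while the HoxD row has 4 on each day.

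Factors that act on Hox genes were read from lists chosen with earlier results of these arrays known. Of the Cdx factors, Cdx4 at day 4 read 8.26 (control) and 10.28 (knockdown), 2.01 apart, and it lay at the floor in ESCs and at day 10. Cdx2 read 12.97 and 14.67 at day 4, 1.71 apart, and differed by -0.56 at day 10. Cdx1 differed by 0.59 and -1.06. In the retinoid list of 14 measured genes, 1 was at least 2-fold higher at day 4 and 3 at day 10, with 0 lower and medians of 0 and 0.23. The shares of all genes that were higher were 0.721% at day 4 and 2.0% at day 10. Dhrs3, a retinaldehyde reductase that retinoic acid induces, differed by 1.76 and 1.90. Aldh1a2, which makes retinoic acid, differed by -0.68 at day 4 and 2.38 at day 10. It is also among the 8 epicardium markers given below, so those lists share this probe. Rarb, a retinoic acid receptor and target, differed by 1.88 at day 10, with all arrays up to day 4 at the floor.

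Few genes of Hox cofactors and of Polycomb or Trithorax complexes passed 2-fold, as was so for genes at large. Over all genes 0.721% were higher and 1.35% lower at day 4, and 2.0% and 2.7% at day 10. Of 6 cofactor genes measured, 0 differed 2-fold at day 4 (median -0.25), and at day 10 only Meis1 did, at 1.08 (median 0.36). All 6 lay below 0 at day 4 and above 0 at day 10. Of 26 Polycomb and Trithorax genes, 0 differed 2-fold at day 4 (median 0.0036). At day 10 only Kdm6a, an H3K27 demethylase, passed 2-fold, at -1.68 on its single probe (median 0.04). Among 15 genes of the limb and caudal field the hindlimb factors Tbx4 (3.76 and 2.33) and Pitx1 (3.04 and 1.12) were higher on both days. Alx4 was higher at day 10 (1.09) and Etv2, a blood and endothelial factor, lower (-1.92). The list medians were -0.27 and -0.01. Tbx5, the forelimb and heart factor, differed by -0.32 and -0.37.

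Markers of the labelled cell types were checked beside these results. Pluripotency markers had a mean log2 level of 15.26 in ESCs and at most 10.35 elsewhere (10 of 12 measured). Streak and mesoderm markers at day 4 read 12.72 (control) and 12.05 (knockdown), against 9.11 in ESCs (11 of 11 measured). Heart muscle markers at day 10 read 14.81 (control) and 13.64 (knockdown), with summed intensities of 471571 and 242090 (9 of 14 measured, 0 at the floor). Of these 9, 7 were at least 2-fold lower in knockdown cells, beside 2.7% of all genes. Tnnt2 went the other way, at 12.89 in control and 15.94 in knockdown cells. The day 10 cultures also carried fibroblast markers, at 14.42 and 14.43 (7 of 8 measured), epicardium markers, at 11.00 and 12.95 (8 of 8), and markers of liver-type endoderm, at 13.70 and 11.18 (8 of 8). The epicardium list summed to an intensity of 45360 in control and 157388 in knockdown, the liver-type list to 186366 and 28794 and the fibroblast list to 264863 and 287262, with 0 of their markers at the floor on either array. Endothelial markers were at 12.80 and 12.53 (6 of 6), blood markers at 9.56 and 9.25 (6 of 8) and neural markers at 9.78 and 9.97 (6 of 7). At day 4 the epicardium list read 8.03 (control) and 7.85 (knockdown), the fibroblast list at 8.81 and 8.59, the liver-type list at 9.12 and 8.46, the endothelial list at 10.30 and 10.08, the blood list at 10.59 and 11.00 and the neural list at 9.40 and 9.37. In ESCs, which were grown on feeders, the fibroblast list read 11.12, above both day 4 arrays, with 1 of its 7 measured markers (Col3a1) at the floor. The part of any of these cell types in the HoxD differences was not tested. In bulk RNA more cells of a type and more RNA per cell cannot be told apart.

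The mean profile of the 9 members, each centred on its own mean over the 5 arrays, was -1.11 in ESCs, 0.26 and 1.13 in control and knockdown at day 4, and -0.70 and 0.42 at day 10. Among 16291 other genes above the floor on at least 1 array, the nearest by root mean square difference over the 5 arrays were Zfp213 (0.26), Rbms2 (0.26), Itgax (0.26), 6720489N17Rik (0.27) and Stag1 (0.28). The members themselves lay farther from their mean, from 0.51 (Hoxd11) to 2.13 (Hoxd1). With 5 arrays and so many genes, close matches of single genes are a description of these arrays alone.

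Differences between the lines kept their sign on both days for Hoxd3, Hoxd4, Hoxd8, Hoxd9, Hoxd10 and Hoxd13, and for Hoxd1 at day 4. This held under all 7 settings of scaling, floor and probe choice. The changed floors and the mean of all probes could not move these values, since each gene had 1 probe and lay above every floor. Only the changes of scaling could move them. Hoxd3 at day 4 differed by 0.0094, far within the between-probe SD of 0.243, so its sign there is not settled. As deposited it differed by 0.21, close to the median of all genes. Over the 7 settings, Hoxd9 ranged from 2.20 to 2.46 at day 4 and from 2.40 to 3.08 at day 10. Hoxd10 ranged from 3.05 to 3.72 at day 10. Hoxd4 and Hoxd8 passed 2-fold in all 7 on both days. Hoxd11 passed 2-fold at day 4 in 5 of 7. The values as deposited, where the median of all genes was itself 0.20 higher in knockdown cells at day 4 and 0.37 at day 10, put 5 and 6 members past 2-fold. Over all genes, these unscaled values put 1.24% higher and 0.964% lower at day 4, and 7.28% higher and 1.17% lower at day 10.

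**Figure D5:**
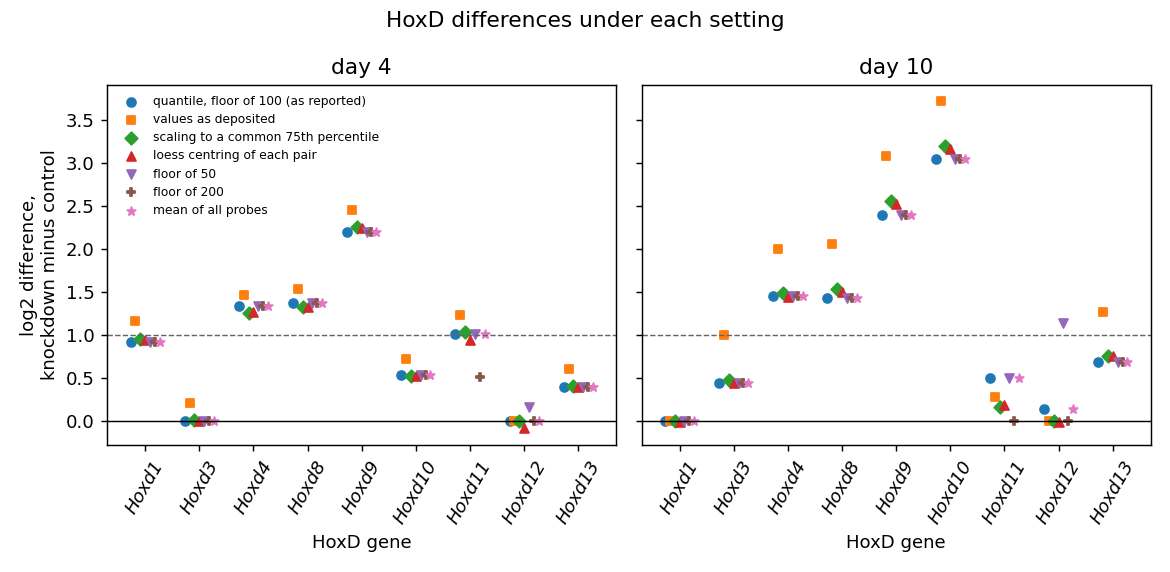
Log2 difference, knockdown minus control, of each HoxD gene at day 4 (left) and day 10 (right) under each of 7 settings (symbols), 1 array per group. The dashed line is 2-fold. The highest symbol of Hoxd10 at day 10, 3.72, is that of the values as deposited, and the symbols of Hoxd11 at day 4 lie on both sides of 2-fold, from 0.51 to 1.24.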

How the data were processed

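Cy5-labelled RNA of 5 cultures was hybridised to single-colour arrays of 26423 probes. The deposited values are probe intensities on a linear scale. Per the submitters' processing notes, Agilent Feature Extraction 10.7.1.1 was used; the sources used here do not give any normalization. Array medians ran from 344 to 745 and up to 1050 probes of an array (knockdown, day 10) lay at or below 0, so background had been subtracted and arrays were not scaled to each other.

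Intensities were quantile normalized over the 5 arrays, floored at 100 (19.0 to 19.1% of probes) and converted to log2 (Python 3.11.15, pandas 2.3.3). Of the probes, 20377 carried 1 symbol, 0 several and 6046 none; symbols were updated through RefSeq names of GRCm38.p6 (18213 current, 2126 synonyms, 38 kept). The brightest probe stood for a gene. A gene was called at a 2-fold difference or more over all 17742 genes, with no filter; 6 of 9 members had a mean at or above the median gene. The between-probe SD came from pairs of probes of 1 gene above the floor (1711 genes at day 4, 1743 at day 10), divided by the square root of 2. With 1 array per group there was no test, and precision is limited by the number of arrays. The scripts were tested on simulated data.

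Members, lists and settings were chosen with earlier results of these data known. Named were all members, up to 4 genes per list past 2-fold with both arrays above the floor, the paralogs, and the 5 nearest profiles; other genes named are examples chosen after their values were seen. Alternatives were the values as deposited, scaling to the 75th percentile, loess centring (span 0.3, 3 iterations; statsmodels 0.14.6), floors of 50 and 200, the mean of all probes, a 4-fold threshold and a filter on mean intensity.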

Additional observations from a re-analysis of the deposited data

How the results depend on the processing

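No paired analysis was possible because each group held 1 array and the groups share a single replicate number. With a 4-fold threshold, 1 member was higher in knockdown cells at day 4, 2 at day 10, and 2 in control day 4 against ESCs. Between day 4 and day 10, 0 were higher in either line, while 2 were lower in control (Hoxd1 and Hoxd9) and 1 in knockdown cells (Hoxd1). The share of all genes past 4-fold was not counted, so these numbers stand without a background. The knockdown median was 0.54 at day 4 with a floor of 200, and at day 10 it was 1.28 as deposited, 1.15 with a floor of 50 and 1.45 for the 6 members at or above the median gene. From day 4 to day 10 in control cells the values as deposited gave 0 members higher, 5 lower and a median of -1.64. With a floor of 50 the day 10 median was the value of Hoxd12 itself, a gene of low signal. With a floor of 200 the day 4 median was the value of Hoxd10, since Hoxd11 fell from 1.02 to 0.51. As deposited, the median of all genes was itself 0.37 for the knockdown comparison at day 10. It was -0.72 from day 4 to day 10 in control cells. Fewer genes were counted under the stricter threshold and filter. Other causes of these moves were not tested. Other counts of members at least 2-fold higher stayed within 1.5 times of the reported ones, and other medians moved by less than the between-probe SD. Of single-gene differences under the alternatives, 245 moved by less than the between-probe SD, 25 by more, and no 2-fold difference changed sign. The mean of all probes changes no member, each having 1 probe. A changed floor leaves members above every floor unmoved, so the 245 include values that could not change. Hoxd12 at day 10 ranged from -0.0051 with loess centring to 1.15 with a floor of 50, so its sign is not settled. Low signal limits Hoxd11 and Hoxd12, and Hoxd1 at day 10. A single array per group leaves differences between cultures unmeasured.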
